A study of Mus musculus with 36 samples.

Results

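The genes described here encode 9 structural proteins of the basement membrane, the thin sheet of matrix on which heart muscle cells and capillaries rest. They are the type IV collagen chains Col4a1, Col4a2 and Col4a4, the collagens Col15a1 and Col18a1 that tie this sheet to its surroundings, the laminin chains Lama2, Lamb1 and Lamc1, and the linker protein Nid1. They were chosen by name, and each was read from the brightest of its probe sets by mean over 36 arrays. They hold 9 of 12626 genes tested, and 19 probe sets on the array were annotated to them. All 9 passed the filter on low signal.

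RNA came from the left ventricle of mice on a C57 black background, 1 RNA sample per array. Per the labels, 3 lines carried a floxed transgene, HRas-v12, MKK3bE or MKK7D, and were crossed to a Mer-Cre-Mer line. Both the floxed transgenes and Mer-Cre-Mer, in which estrogen receptor parts make the Cre recombinase depend on tamoxifen, were driven by the alpha myosin heavy chain promoter, which is active in heart muscle cells. HRas-v12 is a permanently active form of the small GTPase Ras, while MKK3bE and MKK7D are activated kinases upstream of the p38 and JNK stress kinases. Double transgenic mice and non-transgenic littermates, controls included, all received tamoxifen at 12 weeks of age, 20 mg per kg body weight daily on 3 days. Early hearts were taken 4 to 7 days after the first injection and late hearts 2 to 4 weeks after it. Of the HRas-v12 transgenics, the early hearts were 2 females and 3 males and the late hearts 3 of each sex. MKK3bE transgenics comprised 2 female early arrays, 2 female late arrays and 3 male late arrays. MKK7D transgenics were all female, 3 early and 3 late, and had 3 controls of their own at each time. The other controls, 3 males and 3 females, carry no time in their labels and are called the shared controls; they served both the HRas-v12 and the MKK3bE comparisons. The labels do not say whether replicates were separate animals, so p-values measure the spread between these arrays.

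Type IV collagen is secreted as a trimer and polymerises into a network, and Col4a1 and Col4a2 supply the trimer found in nearly all basement membranes. Laminin trimers form a second network that binds integrins and dystroglycan on the cell surface, and Nid1 bridges the laminin and collagen sheets. In the heart, capillary endothelium, mural cells, fibroblasts and muscle cells all contribute chains, and Lama2 is the laminin chain known for congenital muscular dystrophy when it is lost.

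The start regions of the type IV collagen genes are shown because these genes lie in head-to-head pairs and because the partners Col4a1 and Col4a2 moved together. Col4a4 did not rise with them in early HRas-v12 hearts, while over the other 31 arrays its r with Col4a1 was 0.84. A part of the start regions in this was not tested. Of the 9 genes, 8 matched the RefSeq table of start regions (GRCm38.p6), which gives 250 bases before and 50 after each start, and Col18a1 has 2 starts there, making 9 windows. The Col4a1 start (chr8:11312777-11313076, minus strand) and the Col4a2 start (chr8:11312555-11312854, plus strand) lie 21 bases apart, and the capitals mark the 78 bases that the windows share.
Col4a1: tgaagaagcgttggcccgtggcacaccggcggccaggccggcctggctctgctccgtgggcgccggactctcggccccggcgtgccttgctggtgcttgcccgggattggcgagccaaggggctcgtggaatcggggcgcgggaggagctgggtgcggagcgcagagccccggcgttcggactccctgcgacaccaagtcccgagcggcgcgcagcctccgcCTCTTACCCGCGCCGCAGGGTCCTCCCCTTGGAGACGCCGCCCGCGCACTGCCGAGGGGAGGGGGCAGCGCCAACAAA
Col4a2: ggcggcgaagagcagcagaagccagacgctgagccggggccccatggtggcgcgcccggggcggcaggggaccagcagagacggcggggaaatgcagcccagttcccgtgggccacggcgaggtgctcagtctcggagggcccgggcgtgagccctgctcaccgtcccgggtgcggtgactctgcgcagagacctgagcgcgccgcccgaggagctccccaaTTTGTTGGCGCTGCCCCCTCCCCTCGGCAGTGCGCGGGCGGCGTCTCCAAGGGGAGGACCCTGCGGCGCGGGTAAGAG
The Col4a4 window (chr1:82586800-82587099, minus strand) has in capitals the 72 bases between its start and that of its neighbour Col4a3.
Col4a4: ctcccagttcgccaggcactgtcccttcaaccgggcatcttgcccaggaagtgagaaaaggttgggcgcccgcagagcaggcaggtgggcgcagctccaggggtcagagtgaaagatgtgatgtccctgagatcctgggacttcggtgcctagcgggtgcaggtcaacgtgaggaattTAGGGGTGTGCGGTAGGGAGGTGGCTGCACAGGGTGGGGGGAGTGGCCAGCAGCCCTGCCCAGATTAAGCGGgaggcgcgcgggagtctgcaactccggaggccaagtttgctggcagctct

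Short motifs were searched on both strands of these windows and counted in all 32851 windows of the same length. A GC box, GGGCGG, was in 6 of the 9 windows against 35.7% of all windows, and a CCAAT box, CCAAT, in 5 of 9 against 37.4%. Col4a1 and Col4a2 held both, and 1 GC box lies in the bases they share. Col4a4 and Col15a1 held neither. No window held the AP-1 letters TGANTCA, which 7.81% of all windows have, or the TATA box TATAAA, which 13.6% have. A match here is a description of letters and not of a bound site.

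Some arrays went against their labels, and results that rest on them are given with and without them. Esr1, the gene whose product supplies the estrogen receptor part of Mer-Cre-Mer, read 294 to 7943 on the 6 shared controls and 12440 to 155900 on 21 transgenic arrays. The other 3 transgenic arrays, HRas-v12 female early replicate 3 and HRas-v12 male late replicates 1 and 3, read 688 to 2915. On MKK7D late control replicates 8 and 9 the Esr1 signal was 106400 and 91290, as on transgenic arrays, while late control replicate 10 read 953. MKK7D early control replicate 1, labelled female, had an Eif2s3y signal of 6018, and Eif2s3y is a Y-linked gene. These are the 6 arrays left out in the second set of values. The median signal per array ran from 594 to 799.

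On several of these arrays the 9 genes also stood at the level of the other label. On a scale of the mean standardised log2 signal over the 9 genes, where 0 is the average of the 36 arrays and the unit is 1 SD, the shared controls lay between -1.33 and -0.32. HRas-v12 female early replicate 3 was at -1.08 and HRas-v12 male late replicate 1 at -0.65, both within the control range. MKK7D late control replicates 8 and 9 were at 1.03 and 0.93, above every MKK7D transgenic array, and late control replicate 10 was at -0.57. HRas-v12 male late replicate 3 had little Esr1 signal and was at 0.59. HRas-v12 male late replicate 4 had the highest Esr1 signal and was at -1.04, so the driver signal and these genes did not go together on every array. MKK3bE male late replicate 3 and female late replicates 2 and 3 were also within the control range, at -0.74, -0.42 and -0.52. Their Esr1 signals were 56860, 55070 and 58770, so a value in the control range does not by itself mark an array without driver signal.

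**Figure D1:**
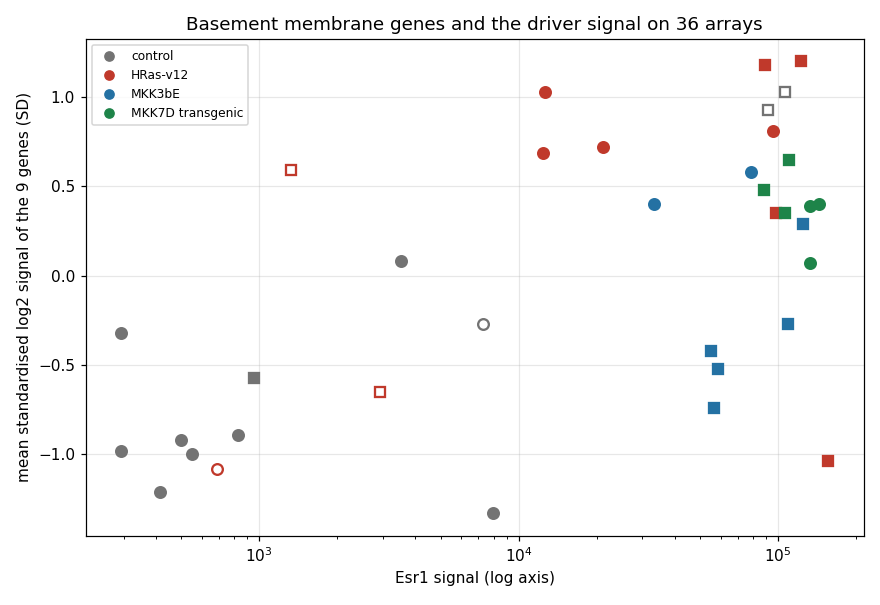
Esr1 signal (horizontal, log axis, as deposited) against the mean standardised log2 signal of the 9 genes (vertical, SD) on 36 arrays, coloured by line, with circles for early and shared control arrays, squares for late arrays and open symbols for the 6 arrays that went against their labels. The 2 open grey squares, MKK7D late control replicates 8 and 9, sit at 1.03 and 0.93 among the transgenic arrays, and the red square at -1.04 has the highest Esr1 signal.

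Early HRas-v12 hearts showed a rise in most of the 9 genes. The comparison averages the male and the female change with equal weight. In limma's moderated test with Benjamini-Hochberg adjustment over all 12626 genes, 7 of the 9 genes rose at adjusted p under 0.05 and none fell, where 33.8% of all genes passed in either direction and 15.1% passed as higher. The median change of the 9 genes was 0.55 on the log2 scale of signal + 32 against -0.04 over all genes. Col18a1 and Col4a4 did not pass. With 5 transgenic and 6 control arrays, 0 of the 9 genes separated the groups without overlap, as 4.27% of all genes did. For Col4a1, Col4a2, Col15a1, Lama2 and Lamc1 the overlap came from HRas-v12 female early replicate 3 alone. With the 6 arrays left out, 8 of 9 passed with 42.3% of all genes passing, Col18a1 being added, and those 5 genes were higher without overlap, as were 13.2% of all genes. Without HRas-v12 female early replicate 1, in contrast, the female arm was replicate 3 alone, whose Esr1 signal was at control level. The changes of Col15a1, Lama2, Lamb1, Lamc1 and Nid1 were then 0.66, 0.31, 0.30, 0.39 and 0.20. In the reported fit they were 1.23, 0.47, 0.50, 0.55 and 0.33, so the rise of these 5 genes depends on that 1 array.

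Late HRas-v12 hearts were also higher in several of the 9 genes, with a wide spread between arrays. Col4a1, Col4a2, Col15a1, Lama2 and Nid1 rose, 5 of 9, where 9.52% of all genes passed in either direction and 4.86% as higher. The median change of the 9 genes was 0.63 against 0.02 over all genes. Every gene of the 9 overlapped between transgenic and control arrays, where 1.39% of all genes did not. Only Col15a1 passed without the 6 arrays, 1 of 9 with 1.24% of all genes passing, and leaving out any one of control male replicates 1 and 2, control female replicates 1 and 2, HRas-v12 female late replicates 3 and 4 or male late replicate 3 gave between 1 and 3.

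In MKK3bE hearts the genes of the 9 that passed in the reported fit were type IV collagens. Fitted on only the groups compared, Col15a1 and Lama2 also passed early (adjusted p = 0.00685 and 0.0398) and Lama2 late (adjusted p = 0.0189). At the early time Col4a1, Col4a2 and Col4a4 rose, 3 of 9, where 6.26% of all genes passed in either direction and 3.48% as higher. The median change was 0.57 against -0.02 over all genes, and 8 of the 9 genes lay higher on both transgenic arrays than on the 3 control females, as did 19.9% of all genes. The exception was Col18a1. Without MKK3bE early replicate 2, no gene of the 9 passed. At the late time Col4a2 and Col4a4 rose, 2 of 9, where 10.4% of all genes passed in either direction and 5.06% as higher, and the median change was 0.32 against -0.01. The late Col4a2 call had an adjusted p of 0.0449 and was lost when any single array of the comparison was left out, while the late Col4a4 call was lost, among single arrays, without MKK3bE female late replicate 3.

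None of the 9 genes passed between MKK7D hearts and their own controls. At the early time 0 of 9 passed where 0.135% of all genes passed, with 3 of the 9 at an unadjusted p under 0.05. The median change was 0.37, and Col4a1, Col4a4, Col15a1, Lama2 and Lamc1 were higher on all 3 transgenic arrays than on all 3 controls, while Nid1 was lower on all 3. Of all genes, 11.3% were higher and 12.1% lower without overlap in this comparison. At the late time 0 of 9 passed where 0% of all genes passed, 643 of 12626 genes and 0 of the 9 having an unadjusted p under 0.05, and the median change was 0.08. Without the 6 arrays, which leaves late control replicate 10 alone in that arm and assumes that it varies like the other groups, Col15a1 rose by 1.34 ± 0.34 (SE, adjusted p = 0.0289), 1 of 9 with 3.39% of all genes passing.

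The MKK7D values depended on which controls were used. The line's late controls were higher than the shared controls in 5 of 9 genes, Col4a1, Col4a2, Col4a4, Lama2 and Lamb1, where 10.7% of all genes passed in either direction and 4.85% as higher. That count was 2 or 3 without any one of the shared control females or of late control replicates 8 and 9. Those 2 late controls had Esr1 signals as on transgenic arrays. Without the 6 arrays, which leaves late control replicate 10 alone in that arm, the 5 differences were 0.33, 0.70, 1.51, 0.28 and 0.75. In the reported fit they were 0.92, 1.07, 2.80, 0.73 and 0.79. The MKK7D early controls differed from the shared controls in 0 of 9, where 1.47% of all genes passed. Against the 3 shared control females, a comparison chosen after the data were seen, early MKK7D hearts were higher in 4 of 9 (Col4a1, Col4a2, Col4a4 and Lama2), where 7.1% of all genes passed in either direction and 3.58% as higher. Late MKK7D hearts were higher in 6 of 9 (Col4a1, Col4a2, Col4a4, Col15a1, Lama2 and Lamc1), where 12.5% passed in either direction and 6.49% as higher. Line and control set cannot be told apart in that comparison.

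**Figure D2:**
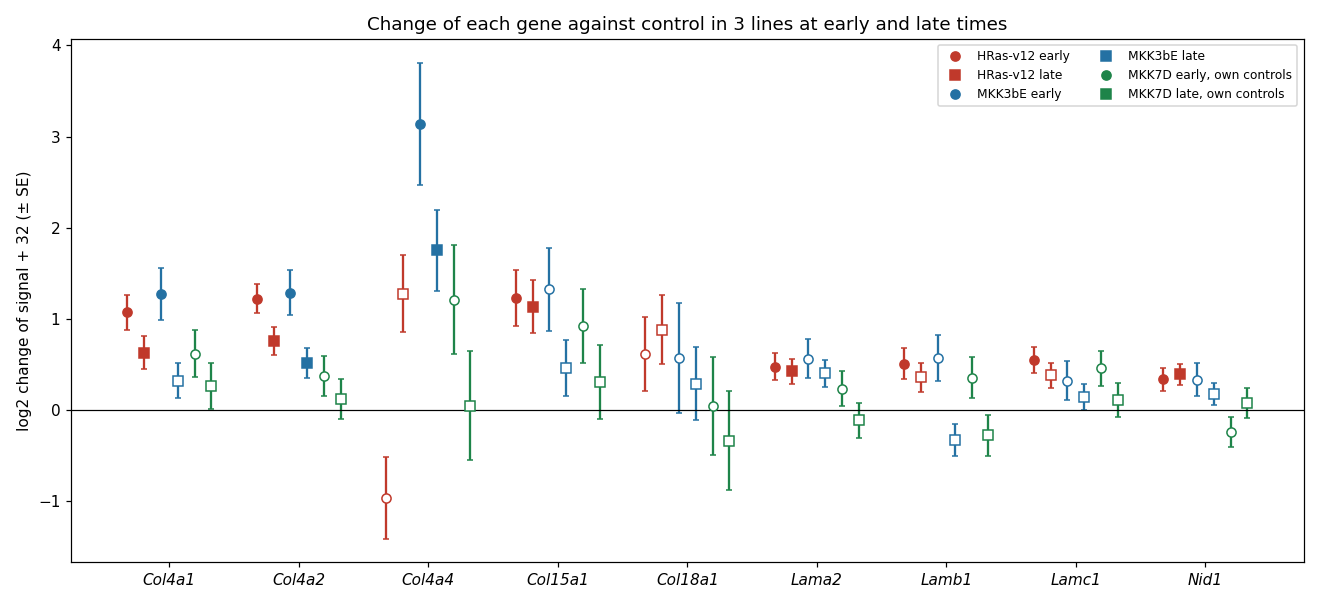
Change of each of the 9 genes against control on the log2 scale of signal + 32 (vertical, points with SE bars), with circles for early and squares for late comparisons, red for HRas-v12, blue for MKK3bE and green for MKK7D against its own controls, and filled symbols where the adjusted p was under 0.05. The red circle of Col4a4 lies at -0.97 while the blue circle lies at 3.14, and no green symbol is filled.

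Col4a1 and Col4a2 encode the chains of the common collagen IV trimer and passed against control in 3 and 4 of 6 comparisons. The Col4a1 signal was 35940, 28720 and 47730 on the shared control males and 30080, 24400 and 24050 on the shared control females. Early HRas-v12 males read 95200, 108600 and 88290, and early HRas-v12 females read 66920 on replicate 1 and 28000 on replicate 3. All early HRas-v12 arrays but female replicate 3 were above every shared control, and the males were higher than any other array. The early HRas-v12 change was 1.07 ± 0.19 (SE) in log2, 2.10-fold, with an adjusted p of 0.000212, and without the 6 arrays it was 1.38 ± 0.15. Late HRas-v12 females read 44330, 62450 and 70180, and late HRas-v12 males 39110, 51450 and 30000, so the males lay within or just above the control range. The late change was 0.63 ± 0.18 (adjusted p = 0.0313), or 0.43 ± 0.15 without the 6 arrays (adjusted p = 0.153).

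In the kinase lines Col4a1 read between 49410 and 64930 on every early transgenic array. Early MKK3bE females read 64930 and 60760, which was 1.27 ± 0.28 (SE) above the control females (adjusted p = 0.00951). Late MKK3bE arrays read 47510, 34200 and 39240 in males and 32820 and 42180 in females, overlapping with controls, with a change of 0.32 ± 0.19 (adjusted p = 0.298). In the MKK7D line the control arrays differ between the times. Early MKK7D transgenics read 60430, 58630 and 49410 against 41020, 36980 and 31940 on their controls, and the groups did not overlap. That difference of 0.62 ± 0.26 had an adjusted p of 0.36. Late MKK7D transgenics read 61870, 57760 and 57440 against 57680, 63040 and 32790 on their controls, so control replicates 8 and 9 were at the transgenic level and replicate 10 at the level of other controls.

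Col4a2 gave the same picture with less spread. Its signal ran from 13970 to 20830 on the 6 shared controls, with a median of 16030. Early HRas-v12 arrays read 56140, 67880 and 47740 in males and 37750 and 18320 in females, a change of 1.22 ± 0.16 (SE, adjusted p = 1.87e-05). Only female replicate 3 fell among the controls. Early MKK3bE arrays read 34270 and 36800, a change of 1.28 ± 0.24 (adjusted p = 0.00274), and late MKK3bE arrays 21570 to 25520, a change of 0.51 ± 0.16. All 5 late MKK3bE arrays were above all 6 shared controls, as was the case for 4.39% of all genes. In MKK7D hearts the change against own controls was 0.37 ± 0.22 early (adjusted p = 0.569) and 0.12 ± 0.22 late (adjusted p = 0.999).

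Over the 36 arrays, which share the line, time and sex groups, the log2 signals of Col4a1 and Col4a2 had a Pearson r of 0.96, and 0.888 once each group's mean was taken out. Col4a2 was the gene most like Col4a1 among all genes tested, and the reverse held too. The next in likeness to Col4a1 were Col5a2 (r = 0.930) and Col6a2 (r = 0.928), which encode chains of fibrillar and microfibrillar collagens.

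Col4a4 encodes a chain of the specialised trimer best known from the kidney glomerulus, and its values ran differently from theirs. Its signal was 1101, 579 and 1010 on the shared control males and 808, 409 and 86.8 on the control females. On early HRas-v12 arrays it was 373, 114 and 258 in males and 436 and 189 in females, below every control male. The change was -0.97 ± 0.45 (SE, adjusted p = 0.0984), and without control female replicate 2 it was -1.36 with an adjusted p of 0.0147. Without the arrays that went against their labels the change was smaller, at -0.695, with the female at 436 alone in the female arm. The size of this fall thus depends on which arrays are kept. The 3 males among the early HRas-v12 arrays held the highest Col4a1 and Col4a2 signals of the series.

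In MKK3bE hearts Col4a4 was high instead. Early MKK3bE females read 2684 and 3545, all above the control females, a change of 3.14 ± 0.67 (SE), 8.83-fold, with an adjusted p of 0.00659. Without control female replicate 2, at 86.8, the change was 2.36 ± 0.65 (5.12-fold, adjusted p = 0.036), and without replicate 4 it was 3.77 ± 0.69 (13.6-fold). Late MKK3bE arrays read 2121, 1166 and 1058 in males and 2008 and 3117 in females, a change of 1.75 ± 0.45 (adjusted p = 0.0134). Of these 5 arrays 4 were above every shared control, and the male at 1058 was not.

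Tested directly in females, with 2 arrays a line, Col4a4 was lower in early HRas-v12 than in early MKK3bE hearts by -3.28 ± 0.73 in log2 (SE, adjusted p = 0.0164), the only 1 of the 9 genes to differ, where 1.81% of all genes passed. The difference did not pass without HRas-v12 female early replicate 3, without either MKK3bE early replicate, or without the 6 arrays, where HRas-v12 replicate 1 stands alone and it was -2.74 ± 0.83 (adjusted p = 0.0629). Within the HRas-v12 line Col4a4 was higher late than early by 2.24 ± 0.45 (adjusted p = 0.00213), again the only 1 of the 9, where 11.6% of all genes passed. Late HRas-v12 arrays read 1078, 3755 and 2576 in females and 838, 1340 and 450 in males, and each was above every early HRas-v12 array. That difference was 1.57 ± 0.55 without the 6 arrays (adjusted p = 0.0387).

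Against shared controls late HRas-v12 hearts had a Col4a4 change of 1.27 ± 0.42 (SE), which did not pass (adjusted p = 0.0543). MKK7D early transgenics read 1865, 2612 and 1846 against 915, 1598 and 465 on their controls, without overlap, and the change of 1.21 ± 0.60 had an adjusted p of 0.472. MKK7D late controls read 4734, 3048 and 972, the first being the highest Col4a4 signal of the series. Only 2 of the 3 Col4a4 probe sets passed the filter on low signal, and all 3 gave the same signs, at -0.97, -0.84 and -0.86 for early HRas-v12 and at 3.14, 1.79 and 1.41 for early MKK3bE. The last of each trio is the probe set below the filter, and the size of the MKK3bE rise differed between probe sets.

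The split between the chains shows in their likeness over arrays. Col4a1 and Col4a4 had r = 0.24 over 36 arrays and r = 0.84 over the 31 arrays that are not early HRas-v12, while Col4a1 and Col4a2 had 0.96 and 0.93. Those 31 leave out the early HRas-v12 arrays with low Col4a4, so the higher r restates that difference. With each group's mean taken out, Col4a1 and Col4a4 had r = 0.654. The genes most like Col4a4 were Sema3c (r = 0.898), which encodes a secreted guidance protein, Itih5 (r = 0.853) and Antxr1 (r = 0.822). Col4a3, the head-to-head neighbour of Col4a4, changed by 0.04 ± 0.36 in early HRas-v12 and 1.10 ± 0.54 in early MKK3bE hearts, with adjusted p-values of 0.947 and 0.214, and is named here after its values were seen.

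**Figure D3:**
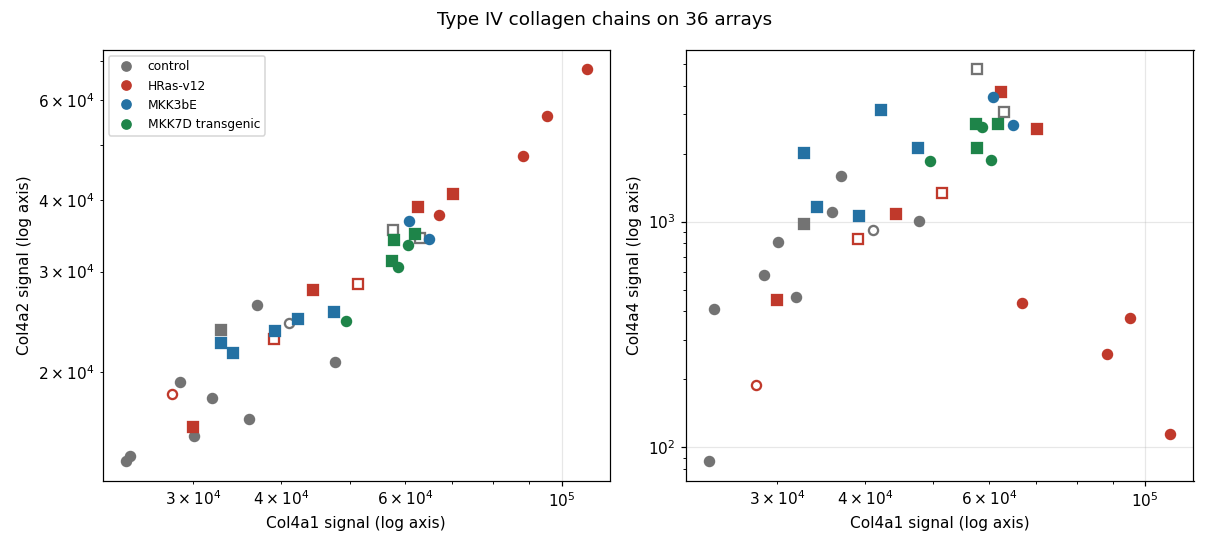
Signal of Col4a2 (left, vertical) and Col4a4 (right, vertical) against that of Col4a1 (horizontal) on 36 arrays, all on log axes, coloured by line, with circles for early and shared control arrays, squares for late arrays and open symbols for the 6 arrays that went against their labels. Col4a2 runs with Col4a1 over the arrays (r = 0.96), while the 4 filled red circles of early HRas-v12 on the right combine Col4a1 signals of 66920 or more with Col4a4 signals of 436 or less.

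Col15a1 encodes a collagen of the outer face of muscle and capillary basement membranes, and it rose in both early and late HRas-v12 hearts. Shared controls read 5775 to 10230 with a median of 6745. Early HRas-v12 arrays read 26120, 16020 and 27160 in males and 29370 and 6127 in females, a change of 1.23 ± 0.31 (SE, adjusted p = 0.00315). Female replicate 3 was again at control level, and without the 6 arrays the change was 1.79 ± 0.21. Without female replicate 1, which leaves replicate 3 alone in the female arm, it was 0.66 ± 0.28. Late HRas-v12 females read 21990, 37000 and 31050 and late males 7639, 14480 and 6607, so 2 of the 3 males were within the control range. The late change was 1.13 ± 0.29 (adjusted p = 0.0204), and it was the one late HRas-v12 call that also passed without the 6 arrays, at 0.91 ± 0.21 (adjusted p = 0.0341). That late call was lost without HRas-v12 female late replicate 3 (adjusted p = 0.0671) and without male late replicate 3 (adjusted p = 0.0817). It was also lost when only the groups compared were fitted (adjusted p = 0.0991) and with the replicate number as a block (adjusted p = 0.173). The same 24 arrays without the block gave an adjusted p of 0.0576.

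Early MKK3bE arrays had Col15a1 signals of 16520 and 19030, above all 3 control females, with a change of 1.32 ± 0.45 that did not pass (SE, adjusted p = 0.0783). Without the 6 arrays, none of which is in that comparison, the smaller pooled spread gave the same change an adjusted p of 0.00147. Early MKK7D transgenics read 17060, 15930 and 13170 against 7679, 10220 and 6721 on their controls, without overlap, a change of 0.92 ± 0.41 (adjusted p = 0.408). The genes most like Col15a1 over 36 arrays were Col6a1 (r = 0.954), Col1a1 (r = 0.942) and Col6a2 (r = 0.940).

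Col18a1 encodes the collagen from which endostatin is cut, and it passed in none of the 6 comparisons against control. Its signal ran from 1082 to 2684 on the shared controls and from 1353 to 3848 on early HRas-v12 arrays, a change of 0.61 ± 0.40 (SE, adjusted p = 0.255). That change was 0.82 without the 6 arrays, where HRas-v12 female early replicate 1 was alone in the female arm. HRas-v12 male late replicate 3 stood apart with 16190 when the other arrays lay between 1082 and 4249, and the second Col18a1 probe set reached 17770. The late HRas-v12 change was 0.88 ± 0.38 (adjusted p = 0.128) with this array and 0.14 ± 0.26 (adjusted p = 0.868) without the 6 arrays. Plat, the gene of tissue plasminogen activator, was among the 3 genes most like Col18a1 (r = 0.843), beside Rai14 and Pank2.

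The laminin chains Lama2, Lamb1 and Lamc1, which assemble into the main muscle laminin, had smaller fitted changes in early HRas-v12 hearts than Col4a1, Col4a2 and Col15a1. Lama2 was the steadiest on controls, at 8161 to 9630 on the shared controls. Early HRas-v12 arrays read 13790, 20460 and 11540 in males and 12830 and 8183 in females, a change of 0.47 ± 0.15 (SE, adjusted p = 0.0133), and all but female replicate 3 were above every shared control. Late HRas-v12 arrays read 9531 to 15570 with a change of 0.42 ± 0.14 (adjusted p = 0.0485). This late call was lost when any single shared control, HRas-v12 female late replicate 3 or 4 or male late replicate 3 was left out. It was also lost with no filter (adjusted p = 0.064), no trend (adjusted p = 0.0593) or only the groups compared (adjusted p = 0.118). In late MKK3bE hearts, at 10100 to 15080, all 5 arrays were above all 6 shared controls, and the change of 0.40 ± 0.14 did not pass (adjusted p = 0.0763).

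Both sets of MKK7D controls had more Lama2 signal than the shared controls. MKK7D early controls read 11420, 13260 and 12710 and late controls 18510, 17540 and 11210, none of them as low as any shared control. The late controls were higher than shared controls by 0.73 ± 0.19 (SE, adjusted p = 0.0174) and the early controls by 0.43 ± 0.19 (adjusted p = 0.256). The late controls at 18510 and 17540 had Esr1 signals as on transgenic arrays. Without the 6 arrays, which leaves only the late control at 11210 in that arm, the differences were 0.28 late and 0.49 early. MKK7D transgenics differed from own controls in Lama2 by 0.23 ± 0.19 early and -0.12 ± 0.19 late. With the 6 arrays left out, the changes against own controls were 0.17 early and 0.34 late. The early Lama2 rise against the shared control females was 0.66 ± 0.19 (adjusted p = 0.0377), with the line's control difference included in it.

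Lamb1, the beta chain, rose in early HRas-v12 hearts by 0.50 ± 0.17 (SE, adjusted p = 0.0233), with signals of 6850 to 13820 on 5 arrays against 5905 to 10380 on shared controls. Late MKK3bE females read 4320 and 4909, under every other array, and late MKK3bE males 9829, 5761 and 7242. Against control the late MKK3bE change of -0.33 ± 0.17 did not pass (adjusted p = 0.215). Tested between lines, Lamb1 was higher in late HRas-v12 than in late MKK3bE hearts by 0.69 ± 0.17 (adjusted p = 0.0183), the only 1 of the 9 genes to differ, where 3.95% of all genes passed. This call was lost without HRas-v12 female late replicate 4, MKK3bE male late replicate 3 or either MKK3bE female late replicate, and without the 6 arrays the difference was 0.62 ± 0.20 (adjusted p = 0.0685). Other Lamb1 probe sets gave 0.08, -0.09 and, for the one below the filter, -0.73 for late MKK3bE against control, beside -0.33 for the brightest. For the difference between lines they gave 0.63, 0.91 and 0.26, the sign of the brightest.

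Lamc1, the gamma chain, rose in early HRas-v12 hearts by 0.55 ± 0.14 (SE, adjusted p = 0.00427). Its signals there were 27440, 23190 and 21870 in males and 27380 and 17510 in females against 14620 to 18410 on shared controls. Late HRas-v12 arrays gave 0.38 ± 0.13 (adjusted p = 0.0683). Its second, dimmer probe set gave larger changes, at 1.34 for early and 1.69 for late HRas-v12 and 1.40 for late MKK3bE, where the brightest one gave 0.14, so the size of the Lamc1 change depends on the probe set. Early MKK7D transgenics read 23290, 23240 and 22180, above their controls at 18160, 20110 and 12800, a change of 0.45 ± 0.19 (adjusted p = 0.369). Hbegf, which encodes a heparin-binding growth factor, was the gene most like Lamc1 (r = 0.853).

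Nid1, the bridge between the networks, had the smallest of the early HRas-v12 changes that passed. Shared controls read 13040 to 21110 and early HRas-v12 arrays 16730 to 24760, which overlap, with a change of 0.33 ± 0.12 (SE, adjusted p = 0.0354). This early call was lost without any one of control male replicates 1 and 2, control female replicate 4 and HRas-v12 male early replicates 1 and 3. It was also lost with quantile normalisation (adjusted p = 0.0535) and when only the groups compared were fitted (adjusted p = 0.0906). Late HRas-v12 females were highest of all arrays at 24980, 27870 and 29150, while late HRas-v12 males read 14860, 17110 and 14380, inside the control range. The late change was 0.39 ± 0.12 (adjusted p = 0.0339). In MKK3bE hearts Nid1 changed by 0.33 ± 0.18 early and 0.17 ± 0.12 late, with adjusted p-values of 0.275 and 0.389. In early MKK7D hearts it was the one gene lower on every transgenic array, at 17480, 14320 and 16900 against 21400, 18430 and 17760, a difference of -0.24 ± 0.16 (adjusted p = 0.63). Of the other Nid1 probe sets, the next in brightness gave the same signs in HRas-v12 and MKK3bE hearts, and the one below the filter was negative throughout these comparisons.

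**Figure D4:**
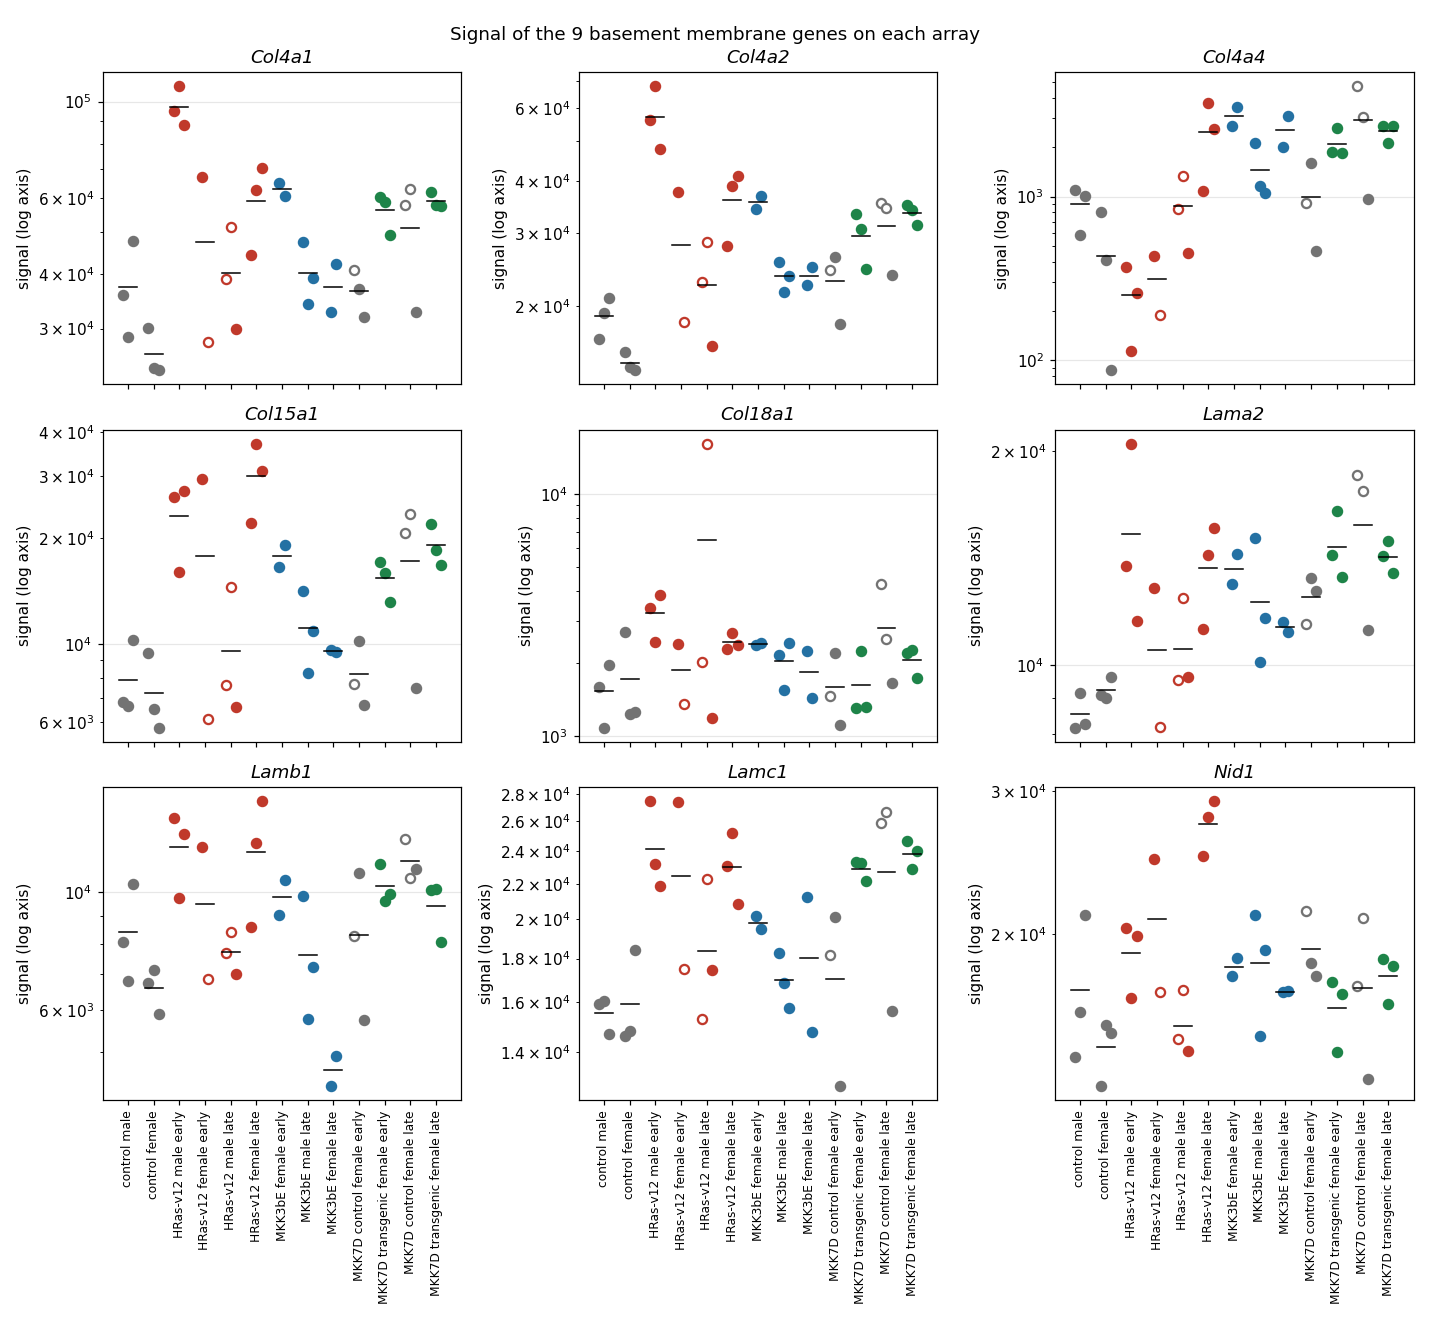
Signal of each of the 9 genes on each of 36 arrays (vertical, log axis, as deposited) by group, with the group mean as a black bar, grey for controls, red for HRas-v12, blue for MKK3bE and green for MKK7D transgenics, and open symbols for the 6 arrays that went against their labels. Early HRas-v12 males lead in Col4a1 (88290 to 108600) and lie below all control males in Col4a4 (114 to 373), and the open Col18a1 point at 16190 is HRas-v12 male late replicate 3.

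Between late and early hearts of a line, no gene of the 9 but Col4a4 passed. In HRas-v12 hearts Col4a1 and Col4a2 were lower late than early by -0.44 ± 0.19 and -0.47 ± 0.16 (SE, adjusted p = 0.133 and 0.0599). Without the 6 arrays 4 of 9 passed, where 26.1% of all genes passed: Col4a1, Col4a2 and Col15a1 were lower late, by -0.95, -0.96 and -0.88, and Col4a4 was higher. Leaving out only HRas-v12 female early replicate 3 or male late replicate 3 gave 3 of 9, and leaving out male early replicate 3 gave 2. In MKK3bE females 0 of 9 passed between times, where 0.00792% of all genes passed, and 3 of the 9 had an unadjusted p under 0.05. Lamb1 had the largest difference, -1.08 ± 0.28 (adjusted p = 0.241). The late change minus the early change of the MKK7D line passed in 0 of 9, where 0.0158% of all genes passed, with a median of -0.36.

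The late HRas-v12 change was smaller in males in 8 of the 9 genes, by a median of -1.04 in log2, yet 0 of 9 passed, where 0% of all genes passed, with 988 of 12626 genes and 6 of the 9 at an unadjusted p under 0.05. Nid1 had a difference of -1.04 ± 0.23 (SE, adjusted p = 0.261) and Col15a1 of -1.83 ± 0.58 (adjusted p = 0.398). Without the 6 arrays the male arm was replicate 4 alone, assumed to vary like the other groups, and 5 of 9 passed, where 3.77% of all genes passed. Early HRas-v12 changes did not differ between sexes in any of the 9, where 1.1% of all genes passed. Neither did late MKK3bE changes, where 0.00792% passed. Without HRas-v12 female early replicate 1, the female arm was replicate 3 alone, whose Esr1 signal was at control level. The early sex differences of Col4a1, Col4a2, Col15a1 and Lama2 were then 1.30, 1.26, 1.74 and 0.97, higher in males. Shared control males and females differed in 0 of 9, where 0% of all genes passed, with 1148 genes and 1 of the 9, Col4a4 with 1.34 ± 0.60, at an unadjusted p under 0.05.

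Ordered by group mean, Col4a1 ran from early HRas-v12 males at 97350 to control females at 26170. The 4 groups after the early males, early MKK3bE females, late MKK7D transgenics, late HRas-v12 females and early MKK7D transgenics, had means of 62850 to 56160, each overlapping with its neighbour in the order, and control males at 37460 overlapped with late MKK3bE arrays. Col4a4 had another order, with early MKK3bE females first at 3114 and early HRas-v12 males last at 249. Early HRas-v12 females at 312 overlapped with these males and with control females at 435. Levels are compared within a gene here, since probe sets differ in brightness.

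Of 22 other basement membrane components tested, 4 rose and 3 fell in early HRas-v12 hearts, with a median of -0.26 against -0.04 over all genes. That is close to the background, since 15.1% of all genes rose and 18.7% fell there. The corresponding shares of all genes that rose and fell were 4.86% and 4.66% in late HRas-v12, 3.48% and 2.78% in early MKK3bE, and 5.06% and 5.39% in late MKK3bE hearts, and they apply to the other lists too. Those with the smallest adjusted p were Hmcn1, a hemicentin of the muscle surface, at -1.41 ± 0.20 (SE), Smoc2, a calcium-binding matrix protein, at -0.86 ± 0.19, Agrn, the proteoglycan agrin, at -0.60 ± 0.13, and Nid2, the second nidogen, at 0.57 ± 0.14. In late HRas-v12 hearts 3 rose and none fell, Lamb2 at 0.43 ± 0.09, Sparc at 0.74 ± 0.19 and Nid2 at 0.49 ± 0.13. Early MKK3bE hearts had 1 rise, the collagen-binding protein Sparc at 1.33 ± 0.31, and 1 fall, Tinagl1 at -1.32 ± 0.34. Late MKK3bE hearts had 1 rise, Col4a6 at 1.39 ± 0.39, and 2 falls, Frem2 at -1.12 ± 0.22 and the peroxidasin Pxdn, which cross-links collagen IV, at -0.47 ± 0.14. In MKK7D hearts none of the 22 passed against own controls at either time.

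Among receptors of the basement membrane 4 of 14 rose and 3 fell in early HRas-v12 hearts, where 33.8% of all genes passed, and the median was -0.06 against -0.04 over all genes. The laminin and collagen receptor chains Itga7 at 1.00 ± 0.15, Itga1 at 1.37 ± 0.23 and Itgb1 at 0.74 ± 0.14 were among those that rose and the sarcoglycan Sgca at -0.99 ± 0.17 among those that fell. In late HRas-v12 hearts Itgb1 and Itga6 rose, 2 of 14, by 0.62 ± 0.13 and 0.65 ± 0.16. In early MKK3bE hearts Sgcb rose, 1 of 14, and in late MKK3bE hearts 0 of 14 passed.

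Of 14 genes that fold, modify and cross-link collagen, 9 rose and 1 fell in early HRas-v12 hearts, where 15.1% of all genes rose and 18.7% fell, and the median was 0.55 against -0.04 over all genes. P4hb, a subunit of prolyl hydroxylase, rose by 1.00 ± 0.14 (SE), the prolyl isomerase Ppib by 0.83 ± 0.14 and the prolyl hydroxylase P3h1 by 0.68 ± 0.17, while P4ha2 fell by 0.68. In late HRas-v12 hearts none of the 14 rose and P4ha2 fell, in early MKK3bE hearts none passed, and in late MKK3bE hearts P4hb rose by 0.45 ± 0.14. Among 11 proteases that cut basement membrane, 5 rose and none fell in early HRas-v12 hearts, with a median of 0.32, among them Mmp14 at 1.32 ± 0.31 and Adamts1 at 1.11 ± 0.25. Htra1 rose there by 0.93 ± 0.18. In late HRas-v12 hearts 2 of 11 proteases rose and none fell, Mmp2 by 0.993 ± 0.225 and Mmp14 by 1.005 ± 0.295. In MKK3bE hearts 2 of 11 rose and 1 fell at each time. Htra1 was lower there, at -1.28 ± 0.28 early and -1.14 ± 0.18 late. Mmp2 rose there by 1.43 ± 0.35 early and 0.89 ± 0.24 late, and Mmp14 rose early by 1.88 ± 0.47.

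Cell type markers moved alongside. In bulk tissue, fewer cells of a type and less RNA per cell cannot be told apart. In early HRas-v12 hearts 11 of 14 endothelial markers fell and none rose, where 18.7% of all genes fell, with a median of -0.58 against -0.04 over all genes, and their summed signal was 59320 to 71680 on males against 94640 to 125900 on control males. All 10 heart muscle markers fell, with a median of -0.55, and their sum was 973200 to 1117000 on early HRas-v12 males against 1416000 to 1583000 on control males. Of 10 macrophage markers 7 rose, with sums of 193500 to 236500 on those males against 74140 to 95730. On early HRas-v12 females, replicate 3 included, endothelial sums of 80380 to 119000 overlapped with 106100 to 136800 on control females. Macrophage sums of 61310 to 151300 overlapped there with 65530 to 91560. Heart muscle sums of 924400 to 1336000 lay below 1572000 to 1862000. Of 12 fibroblast markers 4 rose and 2 fell, and of 10 pericyte and smooth muscle markers 3 rose and 4 fell. The part of these shifts in the changes of the 9 genes was not tested.

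Fibroblast markers also rose in MKK3bE hearts. At the early time 3 of 12 fibroblast markers rose, Postn at 3.29 ± 0.81 (SE), Mfap5 at 2.22 ± 0.58 and Mgp at 1.39 ± 0.38, and the sum was 528400 to 635600 against 346400 to 422500 on control females. At the late time 8 of 12 rose, where 5.06% of all genes rose, with a median of 0.74, when 2 of the 9 basement membrane genes passed. Endothelial markers fell in 2 of 14 early and 0 of 14 late, and heart muscle markers passed in 0 of 10 at either time. Of 10 pericyte and smooth muscle markers none rose, 1 fell early, Notch3 at -0.53 ± 0.16, and 4 fell late, Abcc9 at -0.89 ± 0.23, Kcnj8 at -0.58 ± 0.16, Notch3 at -0.36 ± 0.10 and Acta2 at -1.03 ± 0.32. Their summed signal was 121300 to 149400 on early MKK3bE females against 181600 to 238600 on control females. In late HRas-v12 hearts 3 of 12 fibroblast markers rose, 3 of 14 endothelial and 7 of 10 heart muscle markers fell, 1 of 10 macrophage markers rose and 1 fell, and 1 of 10 pericyte and smooth muscle markers rose and 1 fell. In MKK7D hearts no marker of these lists passed against own controls. In the line's late controls 6 of 10 heart muscle markers were lower than in shared controls, where 744 of 12626 genes passed as lower. Late control replicates 8 and 9, whose Esr1 signals were as on transgenic arrays, enter that comparison. None of 5 skeletal muscle markers was above the filter on low signal. The part of these markers in the changes of the 9 genes was not tested.

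Over the 36 arrays the genes whose log2 signal was most like the mean of the 9 were interstitial collagens: Col1a1 (r = 0.948), Col1a2 (r = 0.940), Col6a2 (r = 0.940), Col5a2 (r = 0.939) and Col6a1 (r = 0.938). These arrays share lines, times and controls, and the values are descriptions. Lama2 had Tgfb2 (r = 0.823), Dpysl3 (r = 0.808) and Ccn2 (r = 0.793) as its nearest genes, Lamb1 had Pxdn (r = 0.770) and Col15a1 (r = 0.743), and Nid1 had Abca9 (r = 0.760).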

How the data were processed

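Total RNA of 36 left ventricles was hybridised to 1 array each. As deposited, each value is the unlogged intensity of a probe set; the submitters' processing notes name MAS5, without a version. Each array has a trimmed mean signal of 2500 with 2% left off at each end, so a per-array scaling was already applied, and no further scaling was done. Detection calls were not used, so a low signal says nothing on presence.

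Signals were taken as log2(signal + 32), which understates changes of low genes. The brightest 60% of probe sets, ranked on their log2 mean across all arrays, were kept (mean at least 8.80), leaving 27022 of 45101, and the brightest per gene was used for 12626 genes. Of the 45101, 34958 had 1 gene symbol, 932 several and 9211 none in GEO's platform annotation; symbols were updated through the gene number to RefSeq. A linear model over all 13 groups (23 residual degrees of freedom) was fitted with limma 3.58.1 in R 4.3.3, using eBayes with a trend on intensity, and p-values were adjusted by Benjamini-Hochberg over all 12626 genes in each of 17 comparisons. The fitting code was tested on simulated data. SE is the model's standard error.

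The 9 genes, the lists and the 6 arrays left out were chosen with earlier results of these data known, so no pattern seen before is independent support. The 9 genes are named in every comparison; of each list, up to 4 genes with the smallest adjusted p among those called; and the genes most correlated with the set (5) or each member (3). Alternatives were pseudocounts of 1 and 128, no filter and an upper 40% filter, quantile normalisation, another probe set choice, no trend, only the groups compared, a replicate block, each array left out, and the 6 arrays left out. Other controls for MKK7D were chosen after seeing the data. No batch is given in the sources used here. The number of arrays limits the precision.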

Additional observations from a re-analysis of the deposited data

Results flagged for a closer look

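Among the differences between lines, times and sexes that were tested for the 9 genes, 3 passed. Col4a4 was higher late than early in HRas-v12 hearts, by 2.24 in log2 (adjusted p = 0.00213). Col4a4 was lower in early HRas-v12 than in early MKK3bE females, by -3.28 (adjusted p = 0.0164). Lamb1 was higher in late HRas-v12 than in late MKK3bE hearts, by 0.69 (adjusted p = 0.0183).

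In further cases every female array of one line lay on one side of its control mean and every array of the MKK7D line on the other side of its own control mean. These differences between the changes were not tested, and the size is the other line's change minus the MKK7D change in log2. At the early time this held for Nid1, with 0.74 for HRas-v12 and 0.57 for MKK3bE. At the late time it held for HRas-v12 in Col18a1 (0.93), Lama2 (0.67) and Lamb1 (1.10), and for MKK3bE in Lama2 (0.41). MKK7D late control replicates 8 and 9 enter all the late ones. Groups have at most 3 arrays, so single arrays were not tested for standing apart within their group.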

How the results depend on the processing

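None of the 9 genes' changes that passed in the reported fit turned its direction in an alternative that was run. Among those that did not pass there, 1 passed in the opposite direction: Lama2 in late MKK7D hearts was 0.62 against the shared control females (adjusted p = 0.035). Against those females 4 genes passed early and 6 late in place of 0. Counts of the 9 genes that passed moved by over 1.5 times as follows. With the replicate block the counts fell to 0 for late HRas-v12, 0 for late MKK3bE and 0 for late HRas-v12 against MKK3bE; the same 24 arrays without the block gave 0 for late HRas-v12 and 1 for late MKK3bE. Deviations from the group mean had r above 0.1 in 8 of 57 pairs of same-numbered arrays, with a range of -0.554 to 0.327. Pairs with different numbers were not examined beside them, so these values cannot decide whether the numbers mark a pairing. Late MKK3bE had 1 with no filter, with quantile normalisation or with no trend, and the late line difference 0 with the median of probe sets. Fitted on only the groups compared, late HRas-v12, HRas-v12 late against early, both line differences and MKK7D late controls against shared controls had 0, early MKK3bE 5 and early MKK7D 2. Without the 6 arrays, late HRas-v12 and late MKK7D had 1, early MKK3bE 5, HRas-v12 late against early 4, both line differences 0, the late HRas-v12 sex difference 5 and MKK7D late controls against shared controls 0. Leaving out 1 array at a time gave 2 to 7 for early HRas-v12, 1 to 7 for late HRas-v12, 0 to 3 for early MKK3bE, 0 to 1 for late MKK3bE, 1 to 3 for HRas-v12 late against early, 0 to 1 for both the early and the late line difference, 0 to 4 for the early HRas-v12 sex difference and 2 to 7 for MKK7D late controls against shared controls. Counts over all genes also moved: over the settings above early HRas-v12 had 1856 to 5335, late HRas-v12 0 to 1246, early MKK3bE 178 to 2074, late MKK3bE 195 to 2581, early MKK7D 13 to 896 and late MKK7D 0 to 1578. Small groups and dim probe sets, above all those of Col4a4, limit these values.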
